A study of Mus musculus with 12 samples.

Results

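The entries described here are the late-numbered miRNAs of a small RNA table, meaning those with a miRBase hairpin number of 1000 or more and any letter or suffix. The rule left out the numbers of miR-1193, miR-1194, miR-1196, miR-1197, miR-1224, miR-1935, miR-1940, miR-1944 and miR-1965, which cover 9 entries. The rule goes by number, with these exceptions named in it and no reason given for them. It gave 82 of the 689 entries in the table, from 72 hairpin numbers, and the 607 entries not chosen serve as the comparison.

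Small RNAs were sequenced after immunoprecipitation of AGO2 with the anti-FLAG M2 antibody from fractionated mouse embryonic stem cells. All 4 groups used cells that carry a doxycycline-inducible HA-Flag-AGO2, at passages 8 to 15, grown on gelatin with leukemia inhibitory factor. The nuclear and total groups with doxycycline received 2.5 ug/ml for 15 h before harvest, and the nuclear and total groups without it carried the same transgene without the inducer. Each group held 3 libraries. The labels name the second fraction Total while the protocol speaks of a cytoplasmic one, so whether it contained nuclei was not settled. The labels do not say whether the libraries of a group came from separate cultures, which clone was used or what untagged AGO2 the cells kept.

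A miRNA is cut from a hairpin transcript, by Drosha with DGCR8 and then by Dicer in the common route, and 1 strand of the duplex is kept by an Argonaute protein such as AGO2. Bases 2 to 8 of the kept strand, the seed, pair with target transcripts. Some hairpins skip Drosha: mirtrons are excised by splicing, and others are cut by Dicer from refolded tRNA or small nucleolar RNA. miRBase numbers follow the order of submission, and many late entries rest on few reads from deep sequencing. A small RNA held by the tagged protein should depend on doxycycline to be recovered with an anti-FLAG antibody.

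The sequences below belong to the entries described further on as having more reads with doxycycline in both fractions beyond counting error, and are shown for their seeds and the form of their precursors. They cover 11 of those 12 entries, all but miR-1186, and are the RefSeq mature sequences on GRCm38.p6, 5′ to 3′, with the seed in capitals. Where the table gives a name without an arm and RefSeq lists both arms, both are printed, since which arm was counted was not settled.
miR-1983: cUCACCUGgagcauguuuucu
miR-1839-5p: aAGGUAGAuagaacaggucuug
miR-1198-5p: uAUGUGUUccuggcuggcuugg
miR-1198-3p: aAGCUAGCcucuaacucauggc
miR-1199-5p: uCUGAGUCccggucgcgcgg
miR-1199-3p: uGCGGCCGgugcucagucggc
miR-1191a: cAGUCUUAcuauguagcccua
miR-1306-5p: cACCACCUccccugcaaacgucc
miR-1306-3p: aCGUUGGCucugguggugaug
miR-1188-5p: uGGUGUGAgguugggccagga
miR-1188-3p: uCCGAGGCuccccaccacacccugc
miR-1968-5p: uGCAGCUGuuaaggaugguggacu
miR-1968-3p: aCCACCUCugcagcuguuaag
miR-1941-5p: aGGGAGAUgcugguacagaggcuu
miR-1195: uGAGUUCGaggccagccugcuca
miR-1981-5p: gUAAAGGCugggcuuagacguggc
miR-1981-3p: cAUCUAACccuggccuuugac

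The next set shows entries among the better detected in nuclei that gained few or no reads there, for their base composition. The miR-1187 sequence is largely alternating U and G, that of miR-1895 is rich in G and C, that of miR-1192 in A and C, and that of miR-1903 in C and U.
miR-1187: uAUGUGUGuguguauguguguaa
miR-1895: cCCCCGAGgaggacgaggagga
miR-1192: aAACAAACaaacagaccaaauu
miR-1903: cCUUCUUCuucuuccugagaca

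The late entry with the most reads, miR-1983, lies in a hairpin of 132 bases at chr13:21896918-21897049 (GRCm38, minus strand). That hairpin contains the annotated isoleucine tRNA gene n-TItat14, of 94 bases at chr13:21896938-21897031. Of the 21 mature bases, 13 lie inside the tRNA and 8 run past its 3′ end. In mouse embryonic stem cells this small RNA is known to be made by Dicer, without Drosha, from an alternative fold of the tRNA. The hairpin is printed with the mature strand in capitals, because the mature strand crosses the tRNA's end.
mir-1983 hairpin: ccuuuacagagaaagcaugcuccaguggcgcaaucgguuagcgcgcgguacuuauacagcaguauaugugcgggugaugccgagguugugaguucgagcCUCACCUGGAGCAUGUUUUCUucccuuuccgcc

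The table holds 1 authors' mean per group and no value per library, so each level below is a mean over the group's 3 libraries with no spread between them. A mean times 3 gives the reads over a group, and intervals are 95% counting intervals on those reads. Since PCR copies were not told apart by molecular identifiers, the intervals and floors describe counting error alone, and no difference here has a replicate check. The mean depth was 400794 miRNA reads per library in nuclei with doxycycline and 36329.9 without it, and 539627 and 16053.4 in the total fraction. The embryonic stem cell cluster of miR-290 to miR-295 held 65.7% and 68.8% of reads in the nuclear and total groups with doxycycline, and 14.3% and 32.1% without it, whereas 13 entries of liver, muscle, neural and blood miRNAs held 1.60% and 1.28% with it and 2.18% and 2.41% without it. The non-member miR-805, with a doxycycline ratio of 0.57 in nuclei and 0.84 in the total fraction, took many of the reads without doxycycline.

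Most late entries were barely detected. In nuclei with doxycycline, 79 of the 82 had any read, 64 had a mean of at least 1, 11 had a mean of at least 10 and 2 reached 100. The corresponding counts were 78, 67, 8 and 1 in nuclei without doxycycline, 58, 37, 7 and 1 in the total fraction with it, and 42, 26, 2 and 0 in the total fraction without it. A mean of at least 10 was reached in nuclei by 13.4% of late and 58.0% of other entries with doxycycline, and by 9.76% and 27.5% without. In the total fraction the shares were 8.54% and 57.7% with it, and 2.44% and 22.6% without. The median late entry had a mean of 3.5 reads in nuclei with doxycycline and 2.67 without, against 17.3 and 3.67 for the other 607. In the total fraction the late median was 0.333 reads both with and without doxycycline, against 21.7 and 1.33. By median the late entries were therefore the sparser set in every group, and their median did not move in the total fraction whereas the median of the others rose. In nuclei without doxycycline, detection was alike in the 2 sets at the lowest limits, though not at a mean of 10. Any read was found there for 95.1% of late and 94.1% of other entries, and a mean of at least 1 for 81.7% of both.

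A mean of 10 was reached in no group by 68 late entries (82.9%), against 236 of the others (38.9%). All 4 groups held reads of 33 late entries (40.2%), against 432 of the others (71.2%). Reads in nuclei but none in the total fraction, both with doxycycline, were found for 23 late entries (28.0%) and 60 others (9.88%). A count of 0 over a group allows up to 3 reads, a mean of 1, which is up to 1.85 CPM in the total fraction with doxycycline (reads scaled to a common library total) and up to 62.3 CPM without it.

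Together the late entries drew 1922.9 mean reads in nuclei with doxycycline and 665.1 without, and 1811.9 and 159.3 in the total fraction. The ratio with over without doxycycline was 2.89 (2.75 to 3.04) in nuclei and 11.4 (10.4 to 12.5) in the total fraction. The same ratio over all miRNA reads was 11.0 (10.96 to 11.1) and 33.6 (33.3 to 33.9), and for the miR-290 to miR-295 cluster it was 50.8 and 72.0. Late entries thus made up 0.480% of nuclear reads with doxycycline (Wilson interval 0.468 to 0.492) and 1.83% without, and 0.336% and 0.992% of reads in the total fraction.

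These sums rest on a pair of entries with opposite behaviour. miR-1983 made up 67.8% of late reads in nuclei with doxycycline and 12.1% without, and 85.9% and 23.9% in the total fraction. miR-1949 made up 12.2% and 42.5%, and 2.59% and 44.4%. Without miR-1983, the ratio of summed reads was 1.06 (0.993 to 1.13) in nuclei and 2.10 (1.85 to 2.39) in the total fraction. Without both, it was 1.28 (1.17 to 1.40) and 4.11 (3.43 to 4.93). The remaining 80 entries gained in summed reads in both fractions, by far less than all miRNA reads did.

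**Figure D1:**
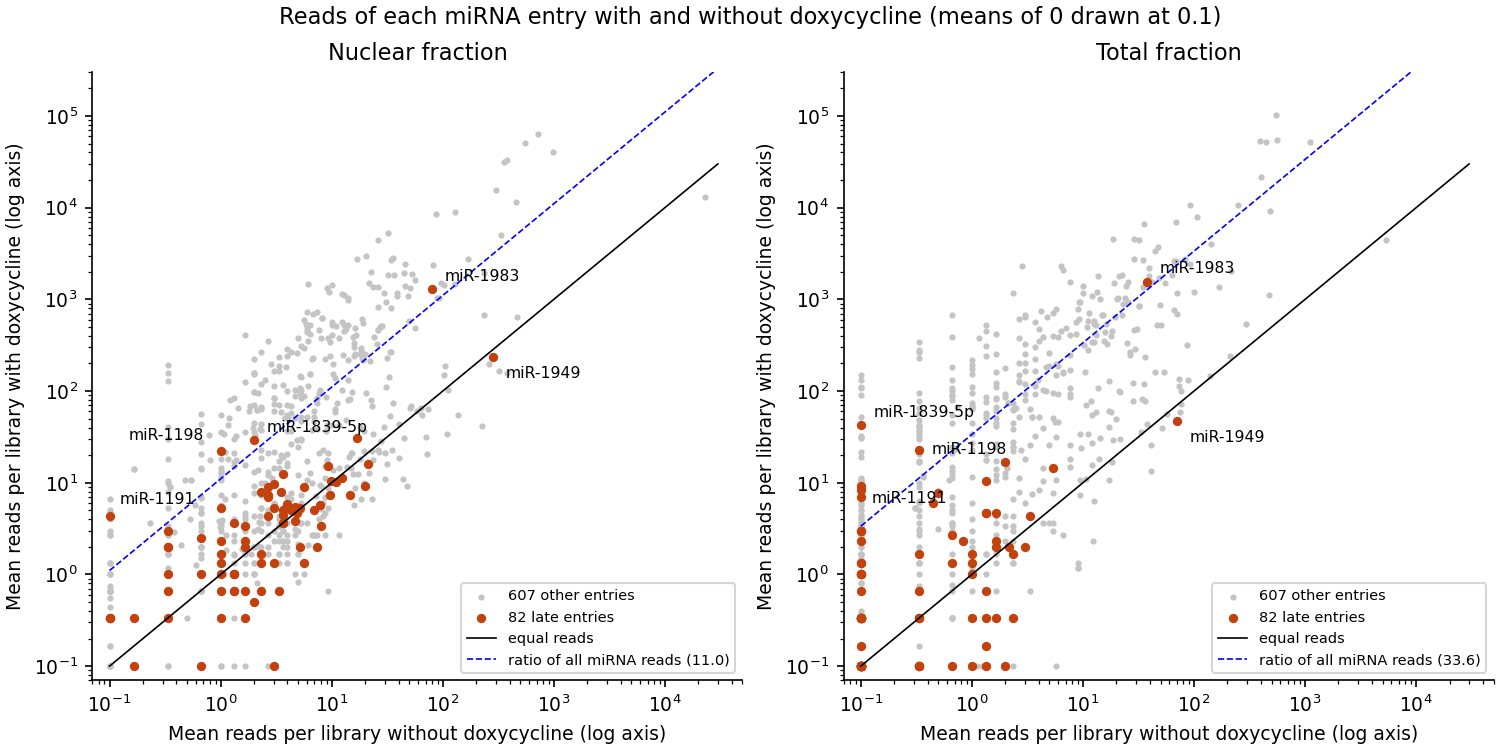
Mean reads per library of each entry without doxycycline (x, log axis) and with it (y, log axis) in the nuclear (left) and total (right) fraction, with means of 0 drawn at 0.1, late entries in orange and the others in grey. miR-1983, miR-1839-5p and miR-1198 lie at or above the dashed ratio of all miRNA reads (11.0 and 33.6), miR-1949 lies below the line of equal reads, and most late entries stay near that line at few reads.

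miR-1983, the tRNA-derived entry, had 1303 mean reads in nuclei with doxycycline and 80.3 without, and 1557 and 38.0 in the total fraction. Both groups with doxycycline were far above both without. The ratio of reads, not corrected for depth, was 16.2 (14.2 to 18.6) in nuclei and 41.0 (34.0 to 49.8) in the total fraction. On the same footing, 6.17% and 2.44% of its reads were present without the inducer. It ranked 39 of the 689 entries in both groups with doxycycline, and 32 in nuclei and 53 in the total fraction without it. In both groups with doxycycline it was the late entry with the highest level.

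miR-1839-5p is the 5p arm of a hairpin at chr7:81529916-81529988 (GRCm38, plus strand), in an exon of the noncoding gene 2900076A07Rik. The hairpin overlaps an annotation classed as a small Cajal body RNA, a class that guides modification of spliceosomal RNAs. That annotation bears the name Mir1839 itself. miR-1839-5p had 29.3 mean reads in nuclei with doxycycline and 2.00 without, and 42.7 and none in the total fraction. The ratio was 14.7 (6.48 to 41.0) in nuclei. In the total fraction its reads were 42.7-fold higher, computed against a floor of 3 reads over the group, with a lower counting limit of 34.2.

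miR-1198 lies in an intron of Gripap1 at chrX:7807101-7807221 (GRCm38, plus strand). Its mean reads were 22.3 in nuclei with doxycycline and 1.00 without, and 22.7 and 0.333 in the total fraction. The ratio was 22.3 (7.32 to 111) in nuclei and 68.0 (11.8 to 2725) in the total fraction, where it rests on 1 read without doxycycline. Both groups without the inducer were near 0.

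These were the only 3 late entries whose read ratio, or its bound, was at or above that of all miRNA reads in both fractions, a level reached by 23.7% of all entries. That level depends on miR-805. With miR-805 left out of the sum, it rose to 29.4 in nuclei and 49.9 in the total fraction. Then 0 late entries reached it in both fractions (12.8% of all entries), 0 in nuclei (17.6%) and 1 in the total fraction (19.6%), which was miR-1198. miR-294, an abundant member of the miR-290 to miR-295 cluster, had ratios of 89.5 and 190, with 1.12% and 0.53% of its reads present without doxycycline, and miR-291a-3p of the same cluster had 92.1 and 98.0. In nuclei the ratios of the 3 late entries were below both references, though the interval of miR-1198 reached past them.

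More reads with doxycycline, with a counting interval above equal, were found in both fractions for 12 of the 82 late entries, where the share over all entries was 49.3%. In nuclei the count was 15 (52.2%) and in the total fraction 16 (58.6%). Besides the 3 above, the 12 comprised miR-1199, miR-1186, miR-1188, miR-1306, miR-1968, miR-1981, miR-1941-5p, miR-1191 and miR-1195. Because sequencing was far deeper with doxycycline, this count records recovery of more reads and not a larger share of the library.

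Of those 9, miR-1199 lies in coding sequence of 2210011C24Rik at chr8:84011515-84011633 (GRCm38, minus strand). It had 12.3 and 3.67 mean reads in nuclei and 16.7 and 2.00 in the total fraction, with and without doxycycline. Its ratio was 3.36 (1.68 to 7.31) in nuclei and 8.33 (3.57 to 23.8) in the total fraction. miR-1186, for which no RefSeq miRNA gene was listed, had 31.0 and 17.0 in nuclei and 14.3 and 5.33 in the total fraction, with ratios of 1.82 (1.28 to 2.62) and 2.69 (1.48 to 5.11). Both gained reads, and both gained less than all miRNA reads.

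miR-1306, whose hairpin lies in an exon of Dgcr8, the gene for Drosha's RNA-binding partner, at chr16:18284239-18284317 (GRCm38, minus strand), had 7 and 2.67 mean reads in nuclei and 10.3 and 1.33 in the total fraction. miR-1981 fills an intron of Marc2 from end to end, within 2 bases, at chr1:184822407-184822488 (GRCm38, minus strand), the position of a mirtron. It had 9.67 and 3.00 in nuclei and 7.67 and 0.5 in the total fraction. The nuclear ratios were 2.62 (1.12 to 6.85) for miR-1306 and 3.22 (1.49 to 7.74) for miR-1981.

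miR-1188, in an intron of the noncoding gene Rian in the imprinted Dlk1-Dio3 region, had 8 and 3.5 mean reads in nuclei and 9.33 and none in the total fraction. miR-1968, in an intron of Grtp1, had 9 and 2.67 in nuclei and 8.33 and none in the total fraction. Against the floor of 3 reads over the group, reads in the total fraction were 9.33-fold higher for miR-1188 and 8.33-fold higher for miR-1968. The lower counting limits were 7.10 and 6.29.

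miR-1191, in an exon of BC024978 at chr7:27205536-27205655 (GRCm38, plus strand), had 4.33 mean reads in nuclei and 7 in the total fraction with doxycycline, and none in either group without it. Of the 12, it was the only one with no read at all in either group without the inducer. Against the same floor, its reads were 4.33-fold higher in nuclei and 7-fold higher in the total fraction, with lower counting limits of 3.05 and 5.21. The depth did not show how far the gain went. miR-1941-5p had 5.33 and 1.00 in nuclei and 3.00 and none in the total fraction, and miR-1195 had 7.33 and 2.67, and 2.33 and none. For 7 of the 12 in nuclei, and for 3 in the total fraction, the upper limit of the ratio was below that of all miRNA reads. Over all 82 late entries, this held for 62 in nuclei (45.7% of all entries) and 28 in the total fraction (30.3%).

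**Figure D2:**
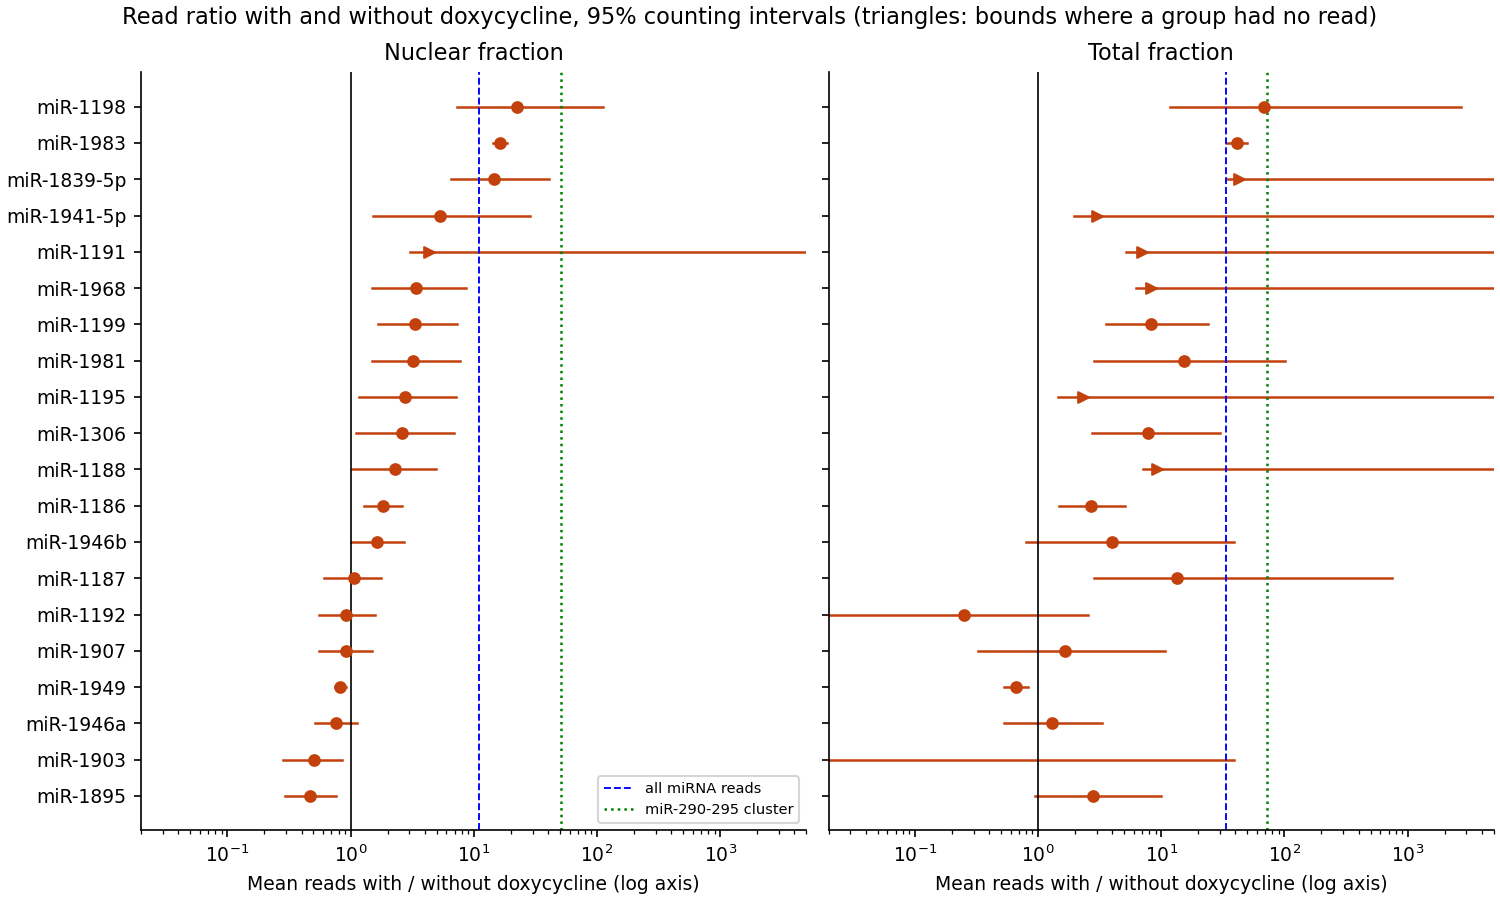
Mean reads with over without doxycycline (x, log axis) for 20 late entries in the nuclear (left) and total (right) fraction, with 95% counting intervals, triangles for bounds where a group had no read, and an interval alone for miR-1903 in the total fraction, which has no ratio. miR-1198, miR-1983 and miR-1839-5p are to the right of the dashed line of all miRNA reads (11.0 and 33.6), and miR-1949 is left of equal reads in both panels.

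More mean reads with doxycycline, without regard to counting error, were found for 45 late entries in nuclei (72.6% of all entries) and 44 in the total fraction (77.8%). Fewer were found for 33 late entries in nuclei (22.5% of all entries) and 18 in the total fraction (10.7%). With a counting interval below equal, the counts were 8 in nuclei (6.53%) and 2 in the total fraction (2.47%). miR-1949 was the entry in both counts. Its hairpin overlaps an annotated small nucleolar RNA, a class that guides chemical modification of other RNAs, and its sequence is not printed here. It had 233.7 mean reads in nuclei with doxycycline and 282.7 without, and 47.0 and 70.7 in the total fraction, so it was lower with the inducer in both. The ratio was 0.83 (0.75 to 0.91) in nuclei and 0.67 (0.53 to 0.83) in the total fraction. Without doxycycline it ranked 13 of 689 in nuclei and 31 in the total fraction, and with it 120 and 255.

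miR-1895, the G- and C-rich entry shown above, had 9.33 mean reads in nuclei with doxycycline and 19.8 without, a ratio of 0.47 (0.29 to 0.76). miR-1903, in an exon of Nrp1, had 7.33 and 14.5 there, a ratio of 0.51 (0.29 to 0.85). In the total fraction miR-1895 had 4.67 and 1.67, and miR-1903 had none and 0.333. The fall in nuclei was therefore not matched by a fall of miR-1895 in the total fraction, and could not be assessed there for miR-1903.

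A comparison of shares rather than reads used log2 folds of means scaled with TMM, which sets the bulk of the tested entries to no change. An entry was tested when its mean reached 10 in at least 1 of the compared groups, and called when it differed by at least 2-fold with a counting interval that excluded no change. This is a rule of size and no test across replicates. In nuclei, 13 late entries were tested, of 371 in all. Of the 13, 0 were called higher with doxycycline (27.8% of tested entries) and 10 were called lower (32.9%). Their median log2 fold was -3.89, beside 0.04 over all tested entries. Of the 13, 6 reached the minimum in both groups, 5 only with doxycycline and 2, miR-1895 and miR-1903, only without it. Those last 2 could hardly have come out otherwise than low. Without any scaling, 4 were called higher and 1 lower, and the median over all entries moved to 4.01.

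For the total fraction, 7 late entries were tested, of 359. Again 0 were called higher (25.3%), and 4 were called lower (29%). The median was -1.95, beside 0.04 over all tested entries, 2 of the 7 reached the minimum in both groups and 5 only with doxycycline. Without scaling, 6 were called higher and 0 lower, and the median over all entries moved to 5.05. Direction here is thus a direction relative to the other miRNAs, and all but miR-1949 of these 7 still had more reads with doxycycline.

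Relative to the other miRNAs, miR-1983 differed little with doxycycline, with a log2 fold of 0.05 (-0.14 to 0.25) in nuclei and 0.35 (0.08 to 0.63) in the total fraction, values that turned to -0.86 and -0.29 when library totals without miR-805 were used for scaling. miR-1839-5p was at -0.09 (-1.27 to 1.39) in nuclei. That value became 1.72 when every entry with a read was used for scaling and 3.87 with no scaling. In the total fraction it was at 0.41 against the floor, with a lower counting limit of 0.09, and at -0.23 with library totals without miR-805. miR-1198 was at 0.51 (-1.10 to 2.83) in nuclei, or -0.40 with library totals without miR-805, and at 1.08 (-1.45 to 6.40) in the total fraction. miR-294, for reference, had 2.52 and 2.56. Of the 12 late entries with a mean of at least 10 in a group with doxycycline, 0 were called higher in both fractions. Another 3 were tested in both and called in neither (miR-1983, miR-1839-5p and miR-1198). The 1.08 of miR-1198 was past 2-fold, but its interval included no change. The 3 called lower in both were miR-1949, miR-1199 and miR-1186. Of these last, miR-1199 and miR-1186 were above 0 with no scaling.

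The entries called lower had log2 folds far below those of the other miRNAs. In nuclei miR-1949 was at -4.24 (-4.39 to -4.10), miR-1946a at -4.37 (-4.92 to -3.79), miR-1895 at -5.06 (-5.75 to -4.37) and miR-1903 at -4.95 (-5.78 to -4.20). miR-1907 was at -4.09, miR-1192 at -4.08, miR-1187 at -3.89, miR-1946b at -3.27, miR-1186 at -3.10 and miR-1199 at -2.22, of which miR-1187, miR-1946b, miR-1186 and miR-1199 were above 0 with no scaling. The values in the total fraction were -5.60 (-5.92 to -5.28) for miR-1949, -3.58 for miR-1186, -2.06 for miR-1306 and -1.95 for miR-1199, the last 3 above 0 with no scaling. miR-1187 was too sparse to be tested in the total fraction, but gained reads there, with a mean of 5.94 with doxycycline and 0.443 without. That ratio was 13.4 (2.84 to 750) and rests on 1 read without doxycycline. miR-1192, also not tested there, had 0.333 and 1.33. miR-805, the non-member with the same direction, was at -4.79 in nuclei and -5.26 in the total fraction.

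The late entries were mostly nuclear in the sense of more reads there. With doxycycline, 68 of the 82 (82.9%) had more mean reads in nuclei than in the total fraction, against 241 of the other 607 (39.7%), although the nuclear libraries were the shallower ones. Without doxycycline, 74 (90.2%) did, against 439 (72.3%), with nuclear libraries the deeper ones. In CPM, the late entries other than miR-1983 and miR-1949 were 2.50 times as abundant in nuclei with doxycycline (2.27 to 2.76) and 2.64 times without (2.22 to 3.15). The CPM totals include miR-805. On the same scale, all entries but miR-805 were at 0.975 with doxycycline and 0.544 without it, so the 2.50 and 2.64 are not directly comparable. In bulk precipitates, fewer molecules bound per cell and fewer cells that hold the RNA cannot be told apart.

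The same was seen among sparse entries generally, to a smaller degree. Among the 68 late entries with a mean under 10 in every group, the CPM ratio, nuclear over total, was 3.37 (2.90 to 3.92) with doxycycline, and among 236 others under the same limit it was 2.14 (1.99 to 2.31). Without doxycycline the values were 2.39 (1.93 to 3.01) and 1.57 (1.41 to 1.76), on a scale where all entries but miR-805 were at 0.544. The gain with doxycycline had overlapping intervals in these sets, at 1.15 (1.02 to 1.29) and 1.23 (1.15 to 1.32) in nuclei and 2.49 (1.97 to 3.19) and 2.75 (2.46 to 3.09) in the total fraction, though a limit on every group also caps the gain an entry can show.

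By the scaled comparison, 12 late entries were tested between the fractions with doxycycline, of 378. Of them 7 were called higher in nuclei (10.3% of tested entries) and 0 lower (3.97%). Their median log2 fold was 1.38, beside -0.04 over all tested entries. Of the 12, 6 reached the minimum in both fractions, 5 only in nuclei and 1 only in the total fraction, so for those 5 a nuclear excess was favoured by the minimum. With the reads found without doxycycline subtracted in each fraction, 5 of the 12 still reached the minimum, and 1 of these was called higher in nuclei, miR-1186 at 1.05. The subtracted reads came from far shallower libraries and were not scaled to depth. Their own counting error did not enter the call, so that call is weak. Without doxycycline, 8 were tested of 189, and 7 were called higher in nuclei (23.8%) and 0 lower (16.9%). Their median was 2.44, beside -0.09, and 6 of the 8 had reached the minimum only in nuclei.

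Among the 3 entries tested with against without doxycycline in both fractions and called in neither, the fractions differed little. With doxycycline the nuclear over total log2 fold was 0.16 (0.09 to 0.22) for miR-1983, or -0.26 with no scaling and -0.05 with every entry that had a read, -0.13 (-0.54 to 0.28) for miR-1839-5p and 0.39 (-0.12 to 0.90) for miR-1198, or -0.02 with no scaling. miR-1199, at -0.02, and miR-1306, at -0.15, were also near equal. miR-1949 was at 2.73 (2.46 to 3.00), miR-1186 at 1.53 (0.99 to 2.08), miR-1187 at 1.23 (0.31 to 2.12), miR-1946a at 2.31 (1.42 to 3.33), miR-1946b at 2.92 (1.84 to 4.23), miR-1907 at 3.18 (1.82 to 4.89) and miR-1192 at 5.34 (2.78 to 10.7), where the last rests on 1 read in the total fraction. Of the entries in this comparison, the 5 nearest to equal between the fractions were also those with the largest read ratios in nuclei.

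Without doxycycline, the nuclear over total log2 fold of miR-1983 was 0.65 (0.33 to 0.99), or -0.10 with library totals. That of miR-1949 was 1.57 (1.36 to 1.80), or 0.82 with library totals, and that of miR-1186 was 1.25 (0.41 to 2.16), or 0.49. With library totals, 5 of the 8 were called higher in nuclei, without miR-1949 and miR-1186. miR-1946a was at 2.25, miR-1907 at 3.20, miR-1192 at 2.62, miR-1895 at 3.15 and miR-1903 at 5.02. Of the entries called, miR-1949 alone reached the minimum in both fractions with and without doxycycline. The values of miR-1946a, miR-1907, miR-1192, miR-1895 and miR-1903, and without doxycycline that of miR-1186, come from entries that reached it in nuclei alone, so the minimum favoured their nuclear excess.

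**Figure D3:**
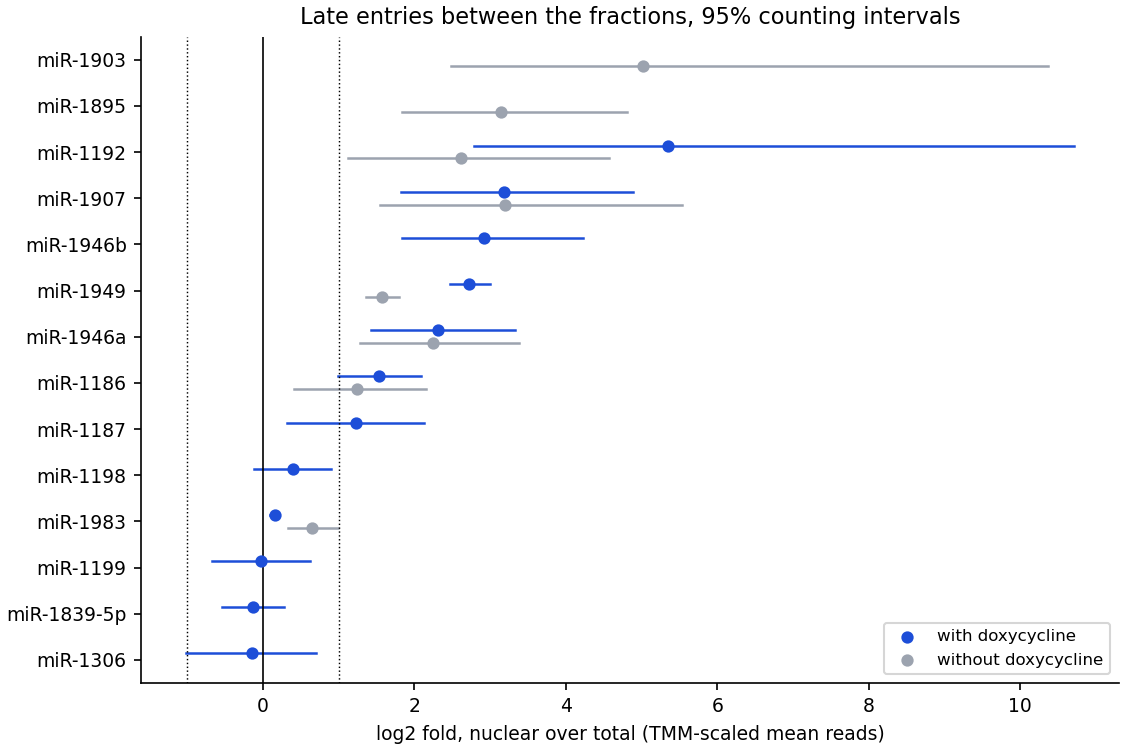
Log2 fold of nuclear over total reads, scaled with TMM (x), for the late entries tested between fractions, with doxycycline in blue and without it in grey, 95% counting intervals, and dotted lines at 2-fold. miR-1983, miR-1198, miR-1839-5p, miR-1199 and miR-1306 lie near 0 with doxycycline, and the others lie to the nuclear side, up to 5.34 for miR-1192.

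For 5 hairpins both arms were listed by suffix, which lets the choice of strand be read within 1 precursor. For miR-1839, the 5p arm had 88 reads and the 3p arm 27 in nuclei with doxycycline, a 5p share of 76.5% (68.0 to 83.3, Wilson). The total fraction with doxycycline had 128 and 14, a share of 90.1% (84.1 to 94.0). Without doxycycline there were 6 and 17 reads in nuclei, 26.1% (12.5 to 46.5), and 0 and 4 in the total fraction, with an upper Wilson limit of 49.0%. The 5p arm was thus the more abundant arm in both groups with the inducer and the less abundant one in nuclei without it, with intervals that did not overlap in nuclei.

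For miR-1941, the 5p and 3p arms had 16 and 1 reads in nuclei with doxycycline, 94.1% (73.0 to 99.0), and 3 and 5 without, 37.5% (13.7 to 69.4). The total fraction had 9 and 1 with doxycycline, and no read of either arm without it. miR-1897, whose hairpin overlaps an annotated structured RNA within Sox2ot, gave 24 and 10 reads, 70.6% (53.8 to 83.2), in nuclei with doxycycline and 7 and 24, 22.6% (11.4 to 39.8), without. The order was the opposite in the total fraction for miR-1897, with 2 and 3 reads with doxycycline and 4 and 0 without. The arms of miR-1894 had 3 and 12 reads in nuclei with doxycycline, 20% (7.05 to 45.2), and 3 and 14 without, 17.6% (6.19 to 41.0). The 5p share of miR-1933 in nuclei was 33.3% (9.68 to 70.0) with doxycycline and 36.4% (15.2 to 64.6) without. The 5p share in nuclei was thus higher with doxycycline, with intervals that did not overlap, for 3 of the 5 hairpins, miR-1839, miR-1897 and miR-1941. For miR-1894 and miR-1933 the nuclear intervals overlapped.

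**Figure D4:**
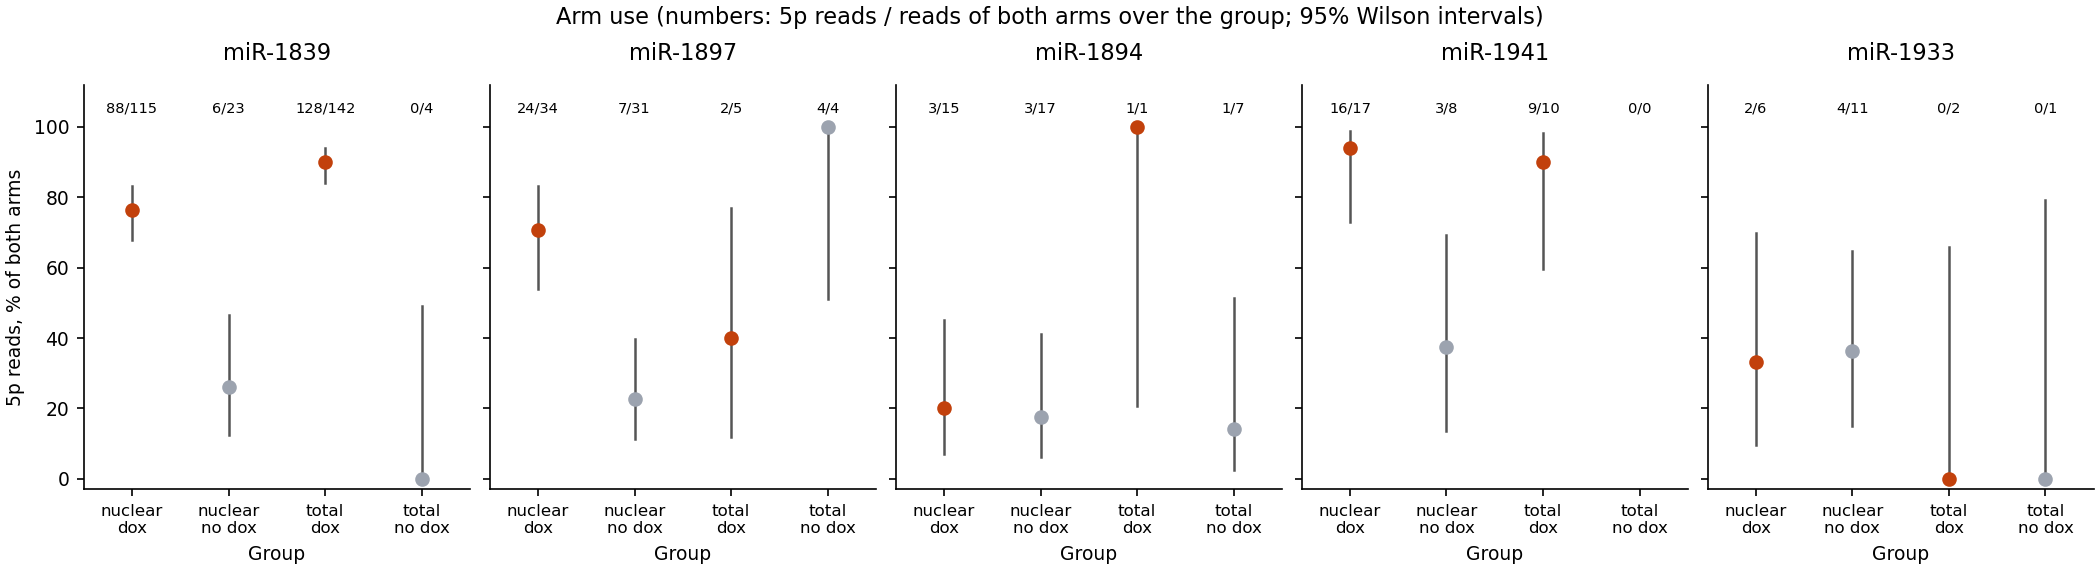
Share of 5p reads among the reads of both arms (y, percent) in the 4 groups for the 5 hairpins with both arms listed, with 95% Wilson intervals and the reads printed above. The 5p share in nuclei is higher with doxycycline than without, with intervals that do not overlap, for miR-1839 (76.5% and 26.1%), miR-1941 (94.1% and 37.5%) and miR-1897 (70.6% and 22.6%). The nuclear intervals overlap for miR-1894 (20% and 17.6%) and miR-1933.

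Several features that the rule did not use were counted in these entries and the others. A RefSeq miRNA gene was found for 74 of the 82 (90.2%) and for 584 of the other 607 (96.2%). Of the 8 late entries without one, miR-1186 had the most reads. Of the 74, 35.1% lay in exons, 41.9% in introns and 23.0% between genes, against 24.3%, 41.4% and 34.2% of the 584 others with a gene. Without miR-1983 and miR-1949, the nuclear ratio with over without doxycycline was 1.22 (1.06 to 1.40) for exonic, 1.35 (1.16 to 1.58) for intronic and 1.12 (0.918 to 1.37) for intergenic entries, and the total ratios were 4.71, 5.45 and 3.27. The intervals of these 3 locations overlapped in each fraction. For the 8 entries with no RefSeq gene, miR-1186 among them, the ratios were 1.73 (1.28 to 2.35) in nuclei and 1.59 (0.975 to 2.62) in the total fraction. That last interval lay below the exonic (3.59 to 6.25) and intronic (3.84 to 7.92) ones.

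An annotation of another small RNA class overlapped the hairpin of 6 of the 74 late entries (8.11%) and of 2 of the 584 others (0.342%). The 6 entries come from 4 hairpins, those of miR-1983 (tRNA), miR-1949 (small nucleolar RNA), miR-1839 (small Cajal body RNA) and miR-1897 (a structured RNA of no named class). The annotation at miR-1839 bears the name Mir1839, so it may be the miRNA gene under another class and not a separate RNA. The 2 late entries with the most reads are both among the 6, and 1 of them followed doxycycline while the other did not. Hairpins with both ends on the ends of an intron were those of miR-1981 and of miR-1982 in Oaz1, together 4 entries. miR-1982*, the star arm, had 4.67 and 4.83 mean reads in nuclei with and without doxycycline and 2.00 and 1.67 in the total fraction, so of these hairpins the miR-1981 one alone gained reads beyond counting error.

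Of the 48 late entries whose sequence was settled, 6 shared a seed with another entry, of which 4 shared it with a different miRNA. The other 2, miR-1839-5p and miR-1897-3p, matched only the second arm entry of their own hairpin, for which the arm's sequence was not settled. Other matches also took in entries with no settled arm, such as let-7a*. How often the other entries share a seed is not given here. miR-1961 was chosen here for its seed, which is that of the let-7 family, a set of miRNAs that rises as stem cells differentiate.
miR-1961: uGAGGUAGuaguuagaa
It had 0.667 mean reads in nuclei with doxycycline and 2.33 without, and none and 1.00 in the total fraction, so the shared seed went with no gain. miR-1983 shared its seed with miR-412 and miR-1192 with miR-495. The means of 21 late entries, miR-1946a, miR-1946b and miR-1187 among them, were not whole after multiplication by 3 in some group, to within 1e-06. Whether reads that match several entries were divided between them is not given in the sources used here, and the values of these entries are uncertain individually.

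By the measurements above, the late entries fell into 3 sets. miR-1983, miR-1839-5p and miR-1198 had read ratios, or a bound, at or above that of all miRNA reads, miR-805 included, in both fractions. They were within 2-fold between the fractions with doxycycline. The counting interval lay above that level in both fractions for miR-1983. It reached below the level in nuclei for miR-1839-5p (6.48 to 41.0) and in both fractions for miR-1198. The other 9 of the 12 entries with more reads in both fractions had lower ratios or bounds. Some of their intervals, such as that of miR-1941-5p in nuclei (1.53 to 28.6), still included that level, and others had no upper limit. The remaining 70 did not show more reads in both fractions beyond counting error. Why miR-1949 and others were recovered as well without the inducer was not tested.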

How the data were processed

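AGO2-bound small RNA was sequenced in 12 libraries, 3 in each of 4 groups. The authors made the deposited expected counts (an estimated count per miRNA entry) from the sequenced reads and gave 1 column per group per the file headers. Averaging over the 3 libraries of a group was inferred from values that are mostly whole after multiplication by 3. The submitters' processing notes name bcl2fastq 2.17.1, TopHat and mm10 without their roles, and the counting step is not given in the sources used here. The quasi-likelihood test planned for counts per library was replaced by ratios of means, since no column per library was at hand.

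Means were scaled with TMM (edgeR 4.0.16, R 4.3.3) over entries with a mean of at least 10 in 1 of the compared groups, and called at 2-fold with a 95% Clopper-Pearson interval on reads that excluded no change. Reads over a group are the mean times 3, rounded. An entry at 0 was set to 3 reads over the group. Shares carry Wilson intervals. The steps ran in Python 3.11.15 with SciPy 1.17.1 for intervals, pandas 2.3.3 and numpy 2.4.6 for tables and matplotlib 3.10.9 for plots, and were tested on simulated data. Alternatives changed the scaling, the minimum, the fold size and the rounding to whole reads.

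Locations come from RefSeq and GENCODE vM21 on GRCm38, and sequences from RefSeq. GC content over the set is void, as 65 of 82 members (79.3%) had a listed mature sequence. Named were the 12 entries with most reads with doxycycline, up to 8 at each end of each doxycycline comparison and up to 5 at each end between fractions; miR-1961, miR-1982* and the arm pairs were added for their sequence or position, and the entries with more reads in both fractions after their values were seen. The members and lists were chosen with earlier results of these data known.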

Additional observations from a re-analysis of the deposited data

Results flagged for a closer look

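Relative to the other miRNAs, the response of miR-1949 to doxycycline differed between the fractions beyond counting error. Its log2 fold with over without doxycycline was -4.24 in nuclei and -5.60 in the total fraction, a difference (nuclear minus total) of 1.36 (1.02 to 1.69). It was the only 1 of the 5 late entries with reads in all groups and tested in both fractions whose interval left out 0. The same held for 127 of all 331 entries tested in both fractions (38.4%), where the median difference was 0.15. The intervals cover counting error only, and no spread between libraries enters them. The difference for miR-1949 depends on the scaling. With no scaling its log2 folds were -0.27 in nuclei and -0.59 in the total fraction, and the intervals of its read ratios, 0.75 to 0.91 and 0.53 to 0.83, overlapped.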

How the results depend on the processing

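No paired analysis was possible because the table has 1 mean per group and no column per library; for the same reason, leaving out a replicate and the count tests were not run. Without scaling, late entries called with doxycycline were 4 higher and 1 lower in nuclei (0 and 10 as reported) and 6 and 0 in the total fraction (0 and 4). With every entry that had a read, they were 3 and 45 in nuclei and 2 and 25 in the total fraction; with a minimum of 5, 33 were lower in nuclei, with 30 the lower counts were 2 and 1, and with only reads that were whole 4 in nuclei. Higher in nuclei with doxycycline (7 as reported) were 23 at a minimum of 5, 2 at 30, 30 with any read, 3 with whole reads and 1 after subtraction of the reads without doxycycline. Without doxycycline (7 and 0 lower) they were 17, 2 and 21, with 1 lower at any read. At a minimum of 30, 1 entry was lower in both fractions (3 as reported) and 1 was tested in both and called in neither (3). The sums without miR-1983, and without it and miR-1949, were chosen after seeing the data: 1.06 and 1.28 in nuclei (2.89) and 2.10 and 4.11 in the total fraction (11.4).

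Of 305 values of member folds under alternatives, 271 kept their call, 9 changed sign with a changed call, 14 were weaker and 11 stronger. Of the 271, 13 changed sign while within the 2-fold limit, all of miR-1983, miR-1839-5p, miR-1198 or miR-1199: miR-1839-5p in nuclei was at 0.41 with library totals and 0.44 at a minimum of 5, and miR-1983 in nuclei at -0.46 at a minimum of 30. The reversals in nuclei with no scaling were miR-1186 at 0.87, miR-1187 at 0.08, miR-1199 at 1.75, miR-1839-5p at 3.87 and miR-1946b at 0.70; with any read miR-1839-5p was at 1.72. In the total fraction with no scaling, miR-1186 was at 1.43, miR-1199 at 3.06 and miR-1306 at 2.95. No scaling leaves the difference in depth in the fold. The median log2 fold of all tested entries with doxycycline in nuclei was 0.55 with library totals and -0.87 with totals without miR-805, and -0.59 with the latter in the total fraction; between fractions without doxycycline it was -0.84 with library totals. Depth without doxycycline limits every bound: 3 reads over a group are 27.5 CPM in nuclei and 62.3 in the total fraction.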
